A study of Mus musculus with 6 samples.

Results

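Threonine dehydrogenase (Tdh) and the glycine and folate one-carbon genes that work beside it were followed across mouse embryonic stem cells (ESCs) and cortical neurons. The 9 symbols were Tdh, its antisense gene Gm17232, Gcat, Gldc, Amt, Gcsh, Shmt2, Mthfd1 and Mthfd2. They mapped to 10 of the 57010 genes in the deposited table, because 2 overlapping gene models carry the symbol Gcat. The symbols were chosen with the ESC and neuron counts of these libraries already known. The values of these 10 genes in the 2 groups are therefore given as a description, with no test. Genes that share exonic bases with them on the opposite strand, from the start, end and strand of each exon in the table, were then added, and these were Ndufa4l2 opposite Shmt2 and Gm47525 opposite Mthfd1.

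The study, on the gene Rai1, compared a pluripotent with a neuronal reference state, each from wild-type mice with no perturbation. One group held 3 libraries of wild-type ESCs, a pluripotent line grown in standard medium. The other held 3 libraries of wild-type primary neurons (neuron libraries below), dissociated from cortex on embryonic day 16.5 and cultured for 7 days. Libraries were poly(A)-selected by oligo-dT priming. The labels do not say whether replicates came from separate cultures or animals, so their spread may be technical. The library names of neuron replicates 2 and 3 hold the word empty, which the labels do not explain. The batch field of the sample labels reads ESC for one group and DIV7 for the other, so effects of batch and cell state cannot be told apart.

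In mice, Tdh oxidises threonine to 2-amino-3-ketobutyrate in mitochondria, and Gcat splits that product into glycine and acetyl-CoA. The glycine cleavage system, with the decarboxylase Gldc, the aminomethyltransferase Amt and the lipoyl carrier Gcsh, breaks glycine down and passes its carbon to tetrahydrofolate. Shmt2 makes glycine from serine in mitochondria and loads folate in the same step, and Mthfd2 and Mthfd1 interconvert folate one-carbon units in mitochondria and cytosol for purine and thymidylate synthesis. Mouse ESCs are known for a dependence on threonine breakdown, and in the brain the glycine cleavage system is known mainly from astrocytes.

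Depth limits every value. Libraries held 1368303 to 1775055 counts in ESCs and 513425 to 624792 in neurons. Levels are CPM, the usual depth-scaled count, with library totals adjusted by the trimmed mean of M-values (TMM). A gene with 3 counts stood at 2.26 to 2.90 CPM in ESC libraries and 3.92 to 4.81 CPM in neuron libraries, for counting error only. The labelled cell types were checked against markers. Summed over 10 pluripotency markers, the level was 189 to 259 CPM in ESCs and 2.98 to 4.81 CPM in neurons, where Pou5f1, Nanog, Zfp42, Esrrb, Dppa5a and Utf1 had no count. Summed over 10 neuron markers, it was 159 to 199 CPM in ESCs and 1060 to 1320 CPM in neurons. That sum was mostly Nefm, with 164, 168 and 139 counts in ESCs and 771, 837 and 699 in neurons. Nefm and Nefl each also share exonic bases on the opposite strand with a marker of this list. Map2 had 0, 0 and 1, then 10, 13 and 13, and Rbfox3, Snap25 and Gap43 had no count in ESCs and at most 11 in neurons. Stmn2 went the other way, with 27, 25 and 16, then 8, 1 and 3, and Tubb3 had 10, 4 and 8, then 4, 2 and 1 in the shallower neuron libraries. Nefl had 9, 9 and 13, then 4, 6 and 4, and Syt1 had 0, 0 and 1 in both groups. Of the 3 neuron markers tested with edgeR 2 were higher and 1 was lower. The neuron libraries also held more signal for 10 markers of astrocytes and radial glia (67.3 to 93.9 against 4.84 to 10.9 CPM) and for 8 of the oligodendrocyte lineage (270 to 299 against 42.9 to 61.9 CPM). The latter sum was mostly Mog, with 183, 154 and 157 counts in neurons, while Mbp had 29, 18 and 28 counts in ESCs and 1, 2 and 2 in neurons. Microglial markers summed to 130 to 145 CPM in neurons and 201 to 266 CPM in ESCs, mostly from Csf1r, with Tmem119, C1qa, Trem2 and Itgam at 0 in both. Neural progenitor markers summed to 89.4 to 135 and 54.2 to 62.5 CPM but moved both ways, Pax6 from 8, 8 and 4 counts in ESCs to 61, 41 and 64 in neurons, Vim from 23, 13 and 17 to none, and Top2a from 32, 22 and 25 to 1, 0 and 0. In the same order, endothelial and mural markers to 0 to 2.98 and 6.02 to 14.5 CPM, and fibroblast markers to 1.49 to 4.81 and 0.753 to 0.967 CPM. Rows opposite some markers held far more counts than the markers. Gm19553, opposite Pou5f1, stood at 13500 to 14200 CPM in ESCs and 0 in neurons, while Pou5f1 had 51, 29 and 43 counts in ESCs. Gm13872, opposite the astrocyte gene Slc1a2, stood at 1140 to 1670 CPM in neurons and 0 in ESCs. In bulk RNA, fewer cells of a type and less RNA per cell cannot be told apart.

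Which bases Tdh and Gm17232 share bears on the counts at that locus, because the sources do not say whether counting used strand. If it did not, reads within the shared bases cannot be assigned to either gene. In that case reads in the other exonic bases are placed by position, whichever strand they came from. If counting did use strand, its setting decides which of the 2 rows a read enters. Under a reversed setting, reads of a gene would enter the row opposite. Which of these cases applied was not tested. The reference transcripts of GENCODE M21 are on GRCm38, an older build than the GRCm39 (mm39) named in the submitters' processing notes, so their coordinates differ from those of the table. The Gm17232 transcript (GRCm38, chr14:63493699-63499872, plus strand) has 453 bases in 4 exons of 71, 118, 55 and 209 bases, the same lengths as in the table. Its first 2 exons (chr14:63493699-63497720) are shown joined, and capitals mark the 66 bases that lie in Tdh exons, 28 in its exon 1 and 38 in its exon 2, which meet at the splice junction. Capitals in Tdh exon 3 (chr14:63497598-63497640, minus strand) and Tdh exon 8 (chr14:63493742-63494011, minus strand) mark the same bases read from the other strand. All 66 belong to Tdh coding sequence.
Gm17232 exons 1 and 2: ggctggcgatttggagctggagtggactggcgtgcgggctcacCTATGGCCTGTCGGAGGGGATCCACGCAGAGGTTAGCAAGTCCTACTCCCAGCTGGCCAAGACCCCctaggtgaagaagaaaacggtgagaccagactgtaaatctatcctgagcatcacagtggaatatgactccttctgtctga
Tdh exon 3: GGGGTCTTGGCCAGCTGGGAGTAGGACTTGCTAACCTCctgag
Tdh exon 8: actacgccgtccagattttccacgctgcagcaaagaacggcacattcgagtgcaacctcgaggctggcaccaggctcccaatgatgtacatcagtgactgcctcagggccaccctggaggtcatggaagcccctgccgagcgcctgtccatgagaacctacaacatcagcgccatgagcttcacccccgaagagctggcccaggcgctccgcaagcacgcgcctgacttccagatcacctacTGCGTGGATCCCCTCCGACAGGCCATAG
The shared stretch is 38 of the 43 bases of Tdh exon 3 and 28 of the 270 bases of exon 8. The other 7 exons of this Tdh transcript share none with Gm17232, whose exons 3 and 4 lie in Tdh introns.

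Tdh (ENSMUSG00000021953.15, chromosome 14, 63729796 to 63746541, minus strand, 2615 exonic bases in the table) had 43, 26 and 23 counts in ESCs and 4, 1 and 2 counts in neurons, given here and below in the order of replicates 1 to 3. Every ESC library lay above every neuron library. The level was 26.1 ± 5.83 CPM in ESCs and 3.31 ± 1.87 CPM in neurons (SD, n = 3). The ratio of ESC to neuron levels was 7.81, with a 95% counting interval of 3.64 to 20.0, and the fitted log2 difference, neuron minus ESC, was −2.91 (SE 0.47). With library totals in place of TMM scaling the log2 difference was −2.19. Neuron replicates 2 and 3 lay below the level of 3 counts, so in those libraries Tdh was at the limit of detection.

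Gm17232 (ENSMUSG00000090374.2, chromosome 14, 63731148 to 63737321, plus strand, annotated as antisense) held 8071, 6439 and 6569 counts in ESCs and no count in any neuron library. Its ESC level was 6080 ± 143 CPM (SD, n = 3), and against a floor of 3 counts in each neuron library it was at least 1380-fold lower in neurons. Ranked by counts, it was the 21st, 20th and 21st gene of the ESC libraries, while Tdh ranked 2936, 3223 and 3629. Per kilobase of exon, the ESC level was 13400 ± 315 CPM for Gm17232 and 9.98 ± 2.23 CPM for Tdh. Tdh held 0.530%, 0.402% and 0.349% of the counts of the pair in ESCs. In neurons all counts of the pair, 4, 1 and 2, were in the Tdh row. Summed over both strands, the locus stood at 6110 ± 145 CPM in ESCs and 3.31 ± 1.87 CPM in neurons, and the summed row had a fitted log2 difference of −10.76 (SE 0.19). Both rows and their sum were lower in neurons, but the size of the difference depended on the row read.

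**Figure D1:**
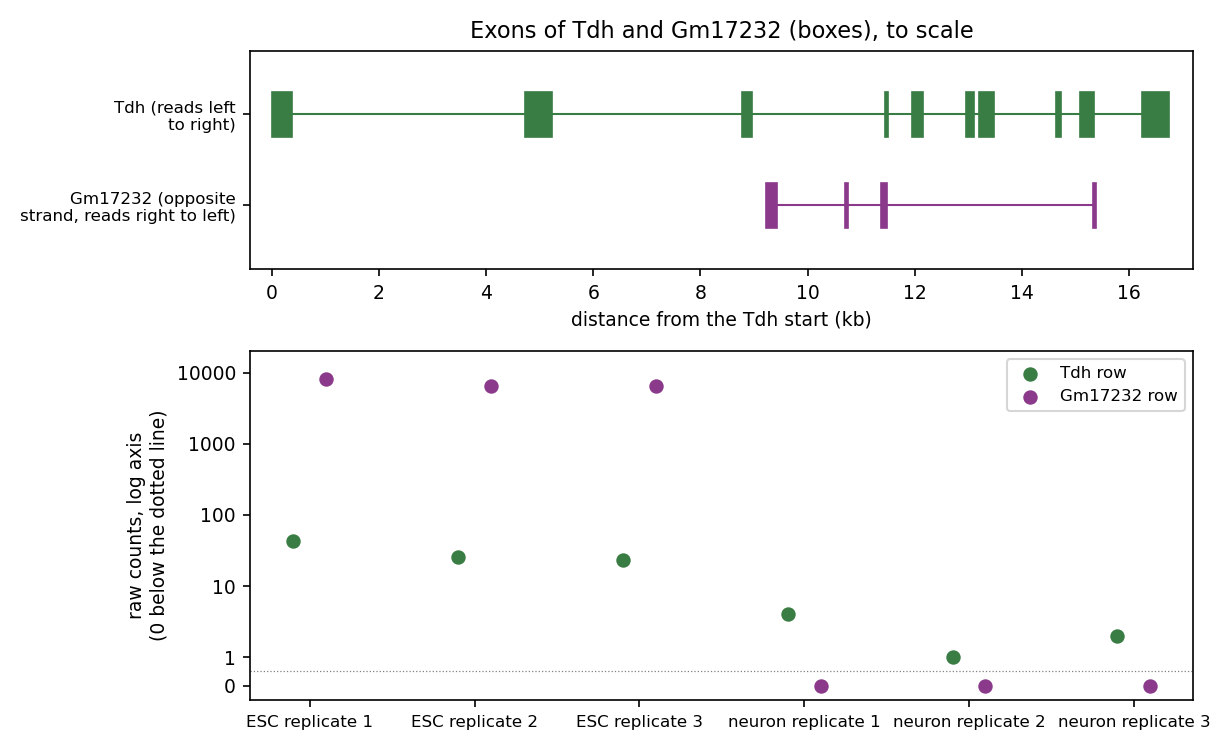
Exons of Tdh and Gm17232, to scale along the distance in kilobases from the Tdh start in the table's coordinates (top), and raw counts of both rows in each library on a log axis, with 0 drawn below the dotted line (bottom). In the ESC libraries Gm17232 sits between 6439 and 8071 counts and Tdh between 23 and 43, and in neurons Gm17232 is at 0 in all 3 libraries.

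The rows of Gcat, the partner enzyme of Tdh, were close to empty. The gene model ENSMUSG00000006378.16 (chromosome 15, 78915074 to 78922553, plus strand) had 0, 1 and 4 counts in ESCs and 0 in each neuron library. The overlapping model on the same strand, ENSMUSG00000116378.2 (78915101 to 78926731), had no count in any library. Reads that fit both models may have been left uncounted or split, which the labels do not state, so the level of Gcat is uncertain. The strand setting is not known either, so few counts here do not show that Gcat was absent. Both groups were at or near the floor of 3 counts, and no fold is given.

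The glycine cleavage genes did not share 1 pattern. Gldc, the decarboxylase (ENSMUSG00000024827.11, chromosome 19, 30075847 to 30152829, minus strand), had 19, 5 and 6 counts in ESCs and 7, 8 and 4 in neurons. Its groups overlapped, at 8.19 ± 5.30 and 9.16 ± 2.76 CPM (SD, n = 3), and ESC replicate 1, at 14.3 CPM, was the highest library. The fitted log2 difference of Gldc was 0.10 (SE 0.47), and it lay between −0.18 and 0.82 over the alternative settings. Amt (ENSMUSG00000032607.13, chromosome 9, 108174052 to 108179501, plus strand) had 48, 32 and 44 counts in ESCs and 37, 40 and 31 in neurons. On the CPM scale its ESC libraries, at 31.0 to 39.8, lay below its neuron libraries, at 48.3 to 59.6. The fitted log2 difference of Amt was 0.55 (SE 0.24), but it was 1.28 with library totals and −0.20 in a fit restricted to genes whose exons face no exon on the other strand, so its direction depended on the fit. Gcsh, the lipoyl carrier (ENSMUSG00000034424.6, chromosome 8, 117708549 to 117720276, minus strand), had 9, 1 and 1 counts in ESCs and 2, 1 and 1 in neurons, and was not separable from the floor. No gene shared exonic bases with Gldc, Amt or Gcsh on the opposite strand. Summed over these 3 genes, levels were 57.2, 36.8 and 46.1 CPM in ESCs and 60.0, 73.0 and 57.7 CPM in neurons, with Amt the main contributor. The summed astrocyte and radial glia markers moved the same way, at 4.84 to 10.9 CPM in ESCs and 67.3 to 93.9 CPM in neurons. Of those 10 markers only 1 was tested. Slc1a2 had 24, 24 and 17 counts in neurons and Sox9 had 11, 4 and 4, and both were at 0 in ESCs. Others were less clear. Aldoc had 3, 0 and 8 counts in ESCs and 3, 1 and 1 in neurons, and Gfap had 7, 4 and 2, then 10, 12 and 2. Fabp7 had no count in ESCs and 0, 3 and 0 in neurons. The part of such cells in the Amt level was not tested.

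Shmt2, Mthfd1 and Mthfd2 each had lower values in all neuron libraries than in any ESC library. Shmt2 (ENSMUSG00000025403.6, chromosome 10, 127352992 to 127358313, minus strand) had 27, 13 and 19 counts in ESCs and 0, 1 and 0 in neurons. The levels were 16.7 ± 3.90 and 0.497 ± 0.860 CPM (SD, n = 3), and the ESC to neuron ratio was 35.1, with a 95% counting interval of 6.05 to 1410. That interval is wide because 1 neuron count supports the lower group. Mthfd2, the mitochondrial dehydrogenase and cyclohydrolase (ENSMUSG00000005667.9, chromosome 6, 83282673 to 83302890, minus strand), had 16, 7 and 11 counts in ESCs and 0, 2 and 0 in neurons. Its levels were 9.59 ± 2.65 and 0.993 ± 1.72 CPM, a ratio of 10.1 with an interval of 2.59 to 86.8. Mthfd1, the cytosolic trifunctional enzyme (ENSMUSG00000021048.8, chromosome 12, 76302072 to 76366577, plus strand), had 20, 12 and 17 counts in ESCs and 4, 6 and 2 in neurons. Its levels were 14.0 ± 2.09 and 5.79 ± 2.91 CPM, a ratio of 2.43 with an interval of 1.27 to 5.01, and its fitted log2 difference was −1.26 (SE 0.46), or −0.54 with library totals. Summed over the 3 genes, levels were 47.4, 31.0 and 42.5 CPM in ESCs and 5.22, 13.4 and 3.21 CPM in neurons.

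Opposite-strand rows differed between these 3 loci. Ndufa4l2, a homologue of a mitochondrial complex subunit (ENSMUSG00000040280.11, chromosome 10, 127350836 to 127353023, plus strand), shares 32 exonic bases with Shmt2 and had 2, 4 and 6 counts in ESCs and 6, 3 and 5 in neurons. Its groups overlapped, at 3.60 ± 1.98 and 6.77 ± 1.99 CPM. Shmt2 held 81.9% ± 9.73 of the counts of this pair in ESCs and 8.33% ± 14.4 in neurons (SD, n = 3). Gm47525 (ENSMUSG00000112274.3, chromosome 12, 76301329 to 76302108, minus strand), annotated as a bidirectional promoter lncRNA, shares 37 exonic bases with Mthfd1. It had 148, 97 and 117 counts in ESCs and 8, 3 and 3 in neurons, or 104 ± 8.98 and 6.57 ± 3.35 CPM, with a fitted log2 difference of −3.91 (SE 0.31). Mthfd1 held 11.9% ± 0.850 of the counts of its pair in ESCs and 46.7% ± 17.7 in neurons, the latter from 5 to 12 counts a library. The summed Mthfd1 locus stood at 118 ± 10.9 CPM in ESCs and 12.4 ± 3.93 CPM in neurons, a fitted log2 difference of −3.21 (SE 0.27). The Mthfd2 row shared no exonic base with a gene on the other strand. Genes opposite only to introns were Rpl31-ps20 in Gldc (1, 0 and 0 counts in ESCs, 4, 2 and 1 in neurons), and Gm34868 (32, 22 and 30, then 12, 3 and 7) and Gm47526 (1, 0 and 1, then 4, 0 and 0) in Mthfd1.

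**Figure D2:**
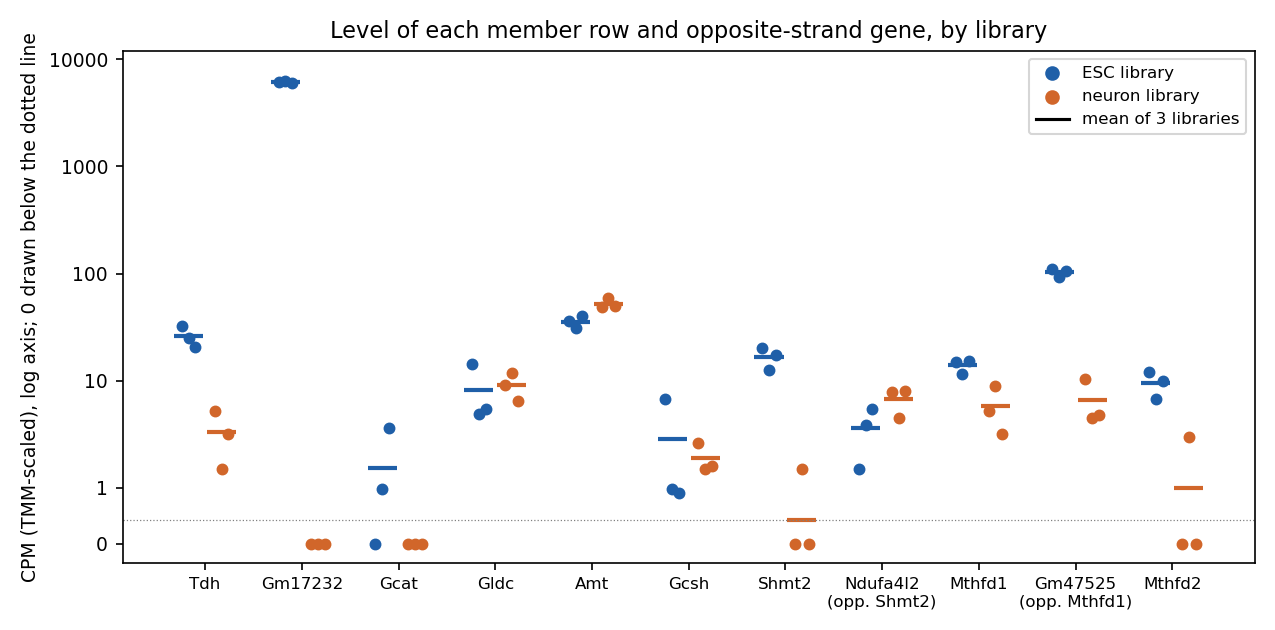
TMM-scaled CPM on a log axis of each gene with at least 1 count and of the 2 added opposite-strand genes, with a point per library, a bar for the mean of 3 libraries, and 0 drawn below the dotted line. Tdh, Gm17232, Shmt2, Mthfd1, Gm47525 and Mthfd2 have all ESC points above all neuron points, Amt has the reverse order, and Gcat, Gldc, Gcsh and Ndufa4l2 overlap.

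Of the 9 symbol-matched rows with at least 1 count, 6 had groups that did not overlap, 5 lower and 1 higher in neurons. Over all 28820 genes with counts, 47.1% had groups that did not overlap, and over the 7150 tested genes 86.4% did. Only Tdh, Gm17232, Gldc, Amt and Mthfd1 passed the filter on low counts. The choice of genes used this contrast, so nothing is read from these shares. Per kilobase, the ESC order below Gm17232 was Amt (14.6 ± 1.83 CPM per kb), Tdh (9.98 ± 2.23), Shmt2 (5.37 ± 1.25), Mthfd1 (3.16 ± 0.471), Mthfd2 (2.75 ± 0.761), Gcsh (1.83 ± 2.13), Gldc (1.34 ± 0.870) and Gcat (0.641 ± 0.786). From Mthfd1 to Gcat, neighbours in this order differed by less than their spread. In neurons Amt led at 21.6 ± 2.53 CPM per kb. Gldc (1.50 ± 0.452), Mthfd1 (1.30 ± 0.655), Tdh (1.26 ± 0.714) and Gcsh (1.20 ± 0.391) followed and did not differ beyond their spread, nor did Mthfd2 (0.285 ± 0.493) and Shmt2 (0.160 ± 0.277).

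The promoters of the 3 folate and serine genes that were lower in neurons are shown because these genes moved in the same direction and because 1 of the promoters lies within an antisense exon. The sequences are from RefSeq on GRCm38.p6, from 250 bases before to 50 after the start, and 7 of the 9 symbols had an entry. The motifs searched on both strands were the C/EBP-ATF response element TGATGNAA, the E-box CACGTG and the CCAAT box, and none of these 3 patterns is contained in another. Capitals mark CCAAT or its complement.
Shmt2 (chr10:127522395-127522694, minus strand): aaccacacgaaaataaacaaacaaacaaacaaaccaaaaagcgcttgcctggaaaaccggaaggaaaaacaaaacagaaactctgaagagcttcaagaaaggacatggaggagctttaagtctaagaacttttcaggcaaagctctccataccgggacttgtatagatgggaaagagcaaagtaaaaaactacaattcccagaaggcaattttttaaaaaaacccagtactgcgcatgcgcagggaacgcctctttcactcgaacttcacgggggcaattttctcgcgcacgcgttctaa
Mthfd1 (chr12:76254982-76255281, plus strand): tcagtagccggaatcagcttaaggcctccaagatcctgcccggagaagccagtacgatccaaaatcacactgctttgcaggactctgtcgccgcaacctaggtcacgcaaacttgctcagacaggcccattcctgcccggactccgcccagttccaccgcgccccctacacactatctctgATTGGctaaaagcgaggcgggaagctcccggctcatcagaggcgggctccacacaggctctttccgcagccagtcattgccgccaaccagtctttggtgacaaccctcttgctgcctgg
Mthfd2 (chr6:83317555-83317854, minus strand): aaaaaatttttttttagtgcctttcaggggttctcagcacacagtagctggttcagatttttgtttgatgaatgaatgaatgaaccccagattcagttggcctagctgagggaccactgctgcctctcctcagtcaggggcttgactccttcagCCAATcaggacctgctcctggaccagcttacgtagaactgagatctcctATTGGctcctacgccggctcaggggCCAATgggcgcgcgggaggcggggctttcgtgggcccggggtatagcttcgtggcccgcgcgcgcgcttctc
All 300 bases of the Mthfd1 window lie within the exon of Gm47525. CCAAT was found in 5 of the 7 windows (Gldc, Amt, Gcsh, Mthfd1 and Mthfd2) and in 37.4% of 32851 RefSeq promoters. CACGTG was found in 1 of 7, that of Gcat, and in 7.15% of all promoters, and TGATGNAA in 0 of 7 and in 3.97%. A match is a description of the letters and not a binding site.

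The genes with the most similar pattern were those with the smallest Euclidean distance in log2 CPM over the 6 libraries. Nearest to Tdh were Hdlbp (distance 0.479), Zfp553 (0.587) and Gart (0.651). Hdlbp, an RNA-binding protein gene, had 36, 23 and 28 counts in ESCs and 3, 1 and 2 in neurons. Zfp553, a zinc finger gene, had 39, 25 and 24, then 3, 2 and 2. Nearest to Gm17232 were Gm19553 (distance 2.06), which lies opposite Pou5f1, ENSMUSG00000121043.1 (2.26) and the dynein heavy chain gene Dnah8 (3.25). Gm19553 had 18559, 13967 and 15649 counts in ESCs and none in neurons, and Dnah8 had 2371, 1831 and 2041, then 2, 0 and 0. ENSMUSG00000121043.1 had 4767, 3373 and 3761, then 2, 0 and 2. The distances to Gm17232 were larger than those to Tdh.

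The wider pathway was examined through 6 lists, 82 genes in all, which do not include the 9 symbols. Like the symbols, the lists were drawn up with results of these data known, so their counts are not independent evidence. Group differences in the lists were tested with edgeR's quasi-likelihood test across all 7150 genes that passed the filter, with Benjamini-Hochberg adjustment over all of them and a threshold of 0.05. Of the 82 genes, 5 had no count, 23 were tested and 22 passed, 12 higher and 10 lower in neurons. In the same fit 6119 of the 7150 tested genes passed, 85.6%, with 47% higher and 38.6% lower. The share of list genes that passed, 95.7%, is to be read beside that background. The median log2 difference was 0.505 over the tested list genes and 0.37 over all tested genes. Past a minimum change of 2-fold, 17 list genes passed, against 67.4% of all tested genes. With no filter on low counts, 39 of 77 list genes passed, 13 higher and 26 lower, against 40.8% of all 28820 genes and 19.6% in the lower direction, so the balance of directions depended on the filter. Scaling to library totals raised the median of all tested genes by 0.73.

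Among 17 genes of folate metabolism and transport, 5 were tested, 3 higher and 2 lower in neurons. Mthfd2l, the mitochondrial isozyme of Mthfd2, had 0, 0 and 1 counts in ESCs and 27, 23 and 24 in neurons. It rose from 0.302 ± 0.522 to 36.0 ± 2.20 CPM (SD, n = 3), a ratio of 124 with a 95% counting interval of 21.7 to 4980 (edgeR adjusted p = 3.27e-12). Mthfd2 and Mthfd2l thus stood in opposite order in the 2 groups. Slc46a1, the proton-coupled folate transporter, rose from 79, 45 and 69 counts to 160, 179 and 145 (log2 difference 2.09, SE 0.17, edgeR adjusted p = 1.11e-13). Slc19a1, the reduced folate carrier, fell from 43, 15 and 35 counts to 3, 0 and 2, an ESC to neuron ratio of 11.1 with an interval of 4.57 to 34.8 (edgeR adjusted p = 8.12e-07). Shmt1, the cytosolic counterpart of Shmt2, had 56, 42 and 62 counts in ESCs and 62, 52 and 49 in neurons, and rose from 46.3 ± 8.53 to 79.0 ± 1.75 CPM (log2 difference 0.77, SE 0.21, edgeR adjusted p = 0.00124). Aldh1l2, a mitochondrial formyltetrahydrofolate dehydrogenase, passed narrowly (29.5 ± 7.16 and 18.8 ± 1.81 CPM, log2 difference −0.65, edgeR adjusted p = 0.0475). It was at 0.08 with library totals and lost the call in 11 alternatives.

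Of 8 genes of serine synthesis and use, 4 were tested, 1 higher and 3 lower in neurons. The rows of the 3 lower genes fell far beyond the replicate spread. Psph, which makes serine from phosphoserine, had 3960, 3124 and 3200 counts in ESCs and 158, 152 and 144 in neurons, or 2970 ± 64.4 and 221 ± 13.1 CPM (log2 difference −3.75, SE 0.11, edgeR adjusted p = 5.2e-28). Srr, the serine racemase that makes D-serine, had 2988, 2501 and 2523 counts, then 161, 191 and 173 (log2 difference −3.18, SE 0.12, edgeR adjusted p = 6.35e-25). Psph and Srr share exonic bases on the opposite strand with Cct6a and Tsr1. Tsr1 had 25, 18 and 27 counts in ESCs and 612, 587 and 477 in neurons. Whether the Psph and Srr rows hold reads of these opposite genes was not tested. Psat1, the aminotransferase before Psph, had 27, 14 and 21 counts, then 0, 0 and 1, a ratio of 36.9 with an interval of 6.37 to 1480 (edgeR adjusted p = 2.38e-07). Sds, a serine dehydratase, rose from 2, 2 and 6 counts to 50, 30 and 44 (log2 difference 4.32, SE 0.39, edgeR adjusted p = 8.47e-13). Phgdh, the first enzyme of serine synthesis, had 9, 2 and 5 counts in ESCs and 2, 3 and 1 in neurons and was not tested. It was chosen after its values were seen, as the enzyme that precedes Psat1.

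Of 17 other genes of glycine and threonine metabolism, 3 were tested and all 3 were higher in neurons. Glyctk, glycerate kinase, rose from 5, 1 and 5 counts to 76, 69 and 49 (log2 difference 4.83, SE 0.34, edgeR adjusted p = 9.71e-16). Tars2, the mitochondrial threonyl-tRNA synthetase, rose from 7, 6 and 4 counts to 38, 27 and 41 (log2 difference 3.36, SE 0.35, edgeR adjusted p = 4.55e-11). Gamt, which methylates guanidinoacetate to creatine, rose from 3, 4 and 4 counts to 10, 6 and 8 (log2 difference 1.83, SE 0.47, edgeR adjusted p = 0.000471). Of 13 genes of the methionine cycle only Mat2a, an S-adenosylmethionine synthetase, was tested. It passed at 44.2 ± 6.65 against 62.9 ± 8.60 CPM (log2 difference 0.50, SE 0.23, edgeR adjusted p = 0.0388) and lost the call in 8 alternatives.

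Purine and thymidylate synthesis uses the folate units that these enzymes supply. Of 15 genes 7 were tested, 2 higher and 5 lower in neurons. Their median log2 difference was −2.76. Ppat, the first enzyme of purine synthesis, fell from 310, 250 and 214 counts to 15, 18 and 12 (log2 difference −3.34, SE 0.21, edgeR adjusted p = 3.21e-17). Gart, which takes formyl groups from folate, fell from 40, 27 and 34 counts to 4, 1 and 3 (log2 difference −2.86, SE 0.44, edgeR adjusted p = 2.34e-07). Rrm2, a ribonucleotide reductase subunit, fell from 30, 24 and 40 counts to 3, 3 and 2, a ratio of 6.98 with an interval of 3.40 to 16.7 (edgeR adjusted p = 7.09e-07). Tk1, thymidine kinase, was higher in neurons, at 112 ± 17.3 against 61.5 ± 3.04 CPM (log2 difference 0.87, SE 0.19, edgeR adjusted p = 8.17e-05). Impdh2, of guanine nucleotide synthesis, passed at 25.6 ± 6.67 against 13.5 ± 3.42 CPM (edgeR adjusted p = 0.0167) and lost the call in 7 alternatives.

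Of 12 transporters of glycine, serine and threonine, 3 were tested and 2 were higher in neurons. Slc7a10, a carrier of glycine and D-serine, had 8, 8 and 10 counts in ESCs and 101, 98 and 78 in neurons, and rose from 7.60 ± 1.52 to 134 ± 10.7 CPM (log2 difference 4.14, SE 0.26, edgeR adjusted p = 3.92e-17). Slc6a9, the glycine transporter GlyT1, rose from 43, 16 and 44 counts to 87, 48 and 73 (log2 difference 1.77, SE 0.26, edgeR adjusted p = 2.18e-07). Slc38a1, a neutral amino acid carrier, did not pass, at 30.1 ± 5.57 and 36.5 ± 5.69 CPM (edgeR adjusted p = 0.332). It passed with library totals (log2 difference 1.00, adjusted p = 0.000831 by the edgeR test) and where a mean of 10 counts was required (0.64, adjusted p = 0.0274 by the edgeR test). Slc6a9 and Slc7a10 are known from glial cells as well as neurons. The astrocyte and radial glia markers given above were higher in sum, though not each of them, in the same neuron libraries. The part of such cells in these transporter values was not tested.

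**Figure D3:**
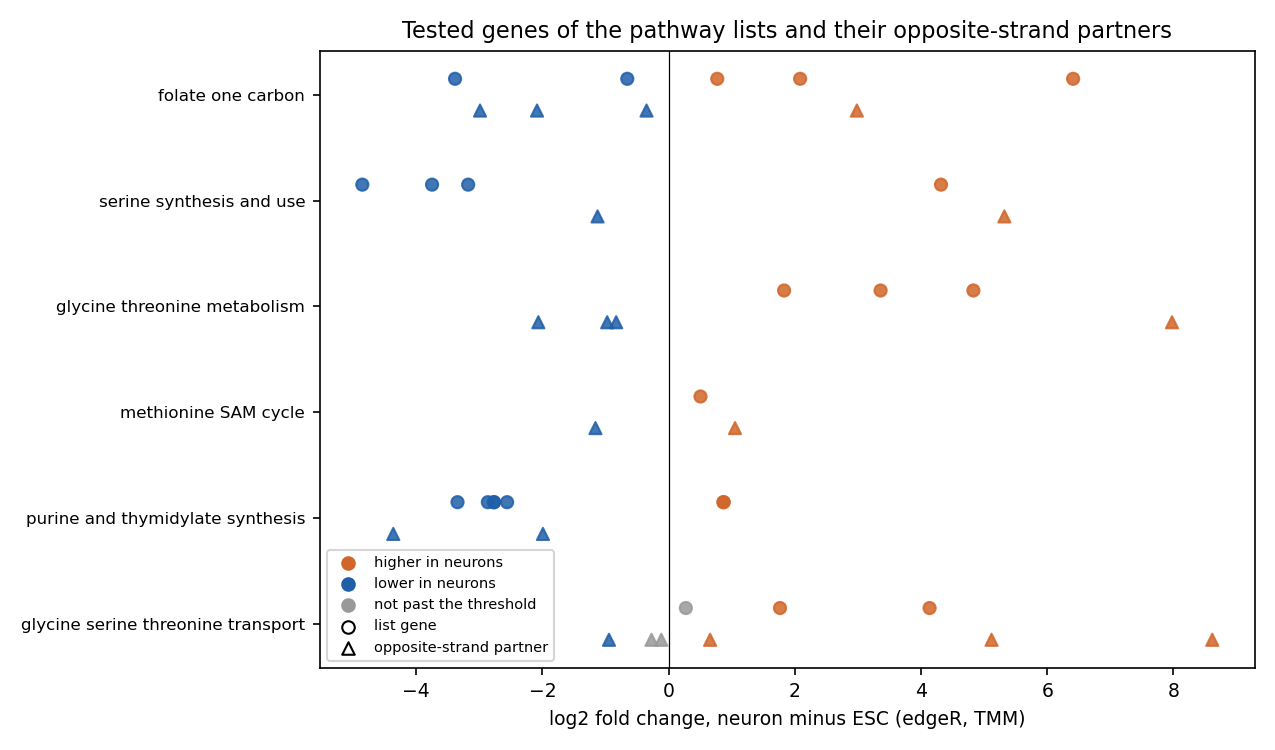
Log2 difference, neuron minus ESC, of each tested gene of the 6 pathway lists (circles) and of tested genes that share exonic bases with them on the opposite strand (triangles). Colour gives the result of edgeR's quasi-likelihood test: orange higher in neurons, blue lower, grey not past the threshold. List genes fall on both sides of 0, with serine and purine synthesis mostly to the left.

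Rows on the opposite strand of the list genes were read in the same way. Of the 82 list genes 26 share exonic bases with 30 opposite-strand genes, and the partner rows held 45.1%, 42.6% and 46% of the counts of these pairs in ESCs and 67.6%, 69.1% and 68.5% in neurons. A few loci carried these shares and they do not describe a typical pair. In ESC replicate 1, Psph and Srr held 3960 and 2988 of 8076 list-gene counts, and Gm15964 held 3444 of 6640 partner counts. In neuron replicate 1, Tsr1 held 612 of 2036 partner counts. The 56 list genes without a partner summed to 512, 266 and 445 counts in ESCs and 325, 294 and 285 in neurons, with a median of 2 to 4.5 counts per gene in ESC libraries and 0 to 1 in neuron libraries. For the 26 list genes with a partner the median was 11 to 23.5 counts in ESC libraries and 12 to 14.5 in neuron libraries. The reason for this gap was not tested. Of the 30 partners 20 were tested in the same fit, and 18 passed, 7 higher and 11 lower in neurons, or 90% against the background of 85.6%. Their median log2 difference was −0.59. With library totals, 9 were higher and 6 lower.

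At several loci both rows moved the same way. Ppat shares 272 exonic bases with another purine synthesis gene, Paics, chosen here after its values were seen, which had 140, 107 and 112 counts in ESCs and 16, 6 and 14 in neurons and was also lower (log2 difference −2.56 in the edgeR fit). Gm15964, opposite Gart, fell from 3444, 2393 and 2997 counts to 91, 84 and 79 (log2 difference −4.36, SE 0.12, edgeR adjusted p = 7.39e-29). Cct6a, a chaperonin subunit gene opposite Psph, fell from 119, 55 and 62 counts to 19, 25 and 19 (log2 difference −1.13, SE 0.26, edgeR adjusted p = 0.000161). With library totals Cct6a was at −0.39 and lost the call (edgeR adjusted p = 0.161). Lrp3, opposite Slc7a10, rose from 1, 1 and 0 counts to 28, 9 and 14, a ratio of 42.9 with an interval of 11.3 to 364 (edgeR adjusted p = 2.39e-09). Ccdc24, opposite Slc6a9, passed at 90.2 ± 12.5 against 144 ± 45.8 CPM, with overlapping groups (edgeR adjusted p = 0.00288), and lost the call without neuron replicate 2, with limma-voom and against a minimum change of 2-fold.

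At other loci the rows moved apart. Tsr1, a ribosome biogenesis gene that shares 1240 exonic bases with Srr, rose from 25, 18 and 27 counts to 612, 587 and 477 while Srr fell (log2 difference of Tsr1 5.32, SE 0.16, edgeR adjusted p = 1.45e-27). Smcr8, opposite Shmt1, fell from 60, 61 and 55 counts to 3, 4 and 6 (log2 difference −2.99, edgeR adjusted p = 1.18e-09). Particl, an antisense transcript at Mat2a, fell from 850 ± 16.7 to 381 ± 16.8 CPM (log2 difference −1.16, edgeR adjusted p = 2.56e-12), and Ndufaf3, opposite Impdh2, fell from 89.3 ± 2.99 to 22.6 ± 4.49 CPM. D10Wsu102e, opposite Aldh1l2, rose from 71, 23 and 51 counts to 183, 247 and 238 (log2 difference 2.98, edgeR adjusted p = 1.51e-09). Opposite Glyctk, D030055H07Rik and the microRNA gene Mir135a-1 were lower in neurons, with log2 differences of −0.83 and −0.97. With library totals both lost the call, D030055H07Rik at −0.10 and Mir135a-1 at −0.25. Mir135a-1 lost it in 6 alternatives in all, and D030055H07Rik in 2, the other being the minimum change of 2-fold. Mir135a-1 is a gene model of 90 bases, and its row in poly(A)-selected libraries is not the mature microRNA.

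Some list genes that were not tested, or did not pass, lay opposite rows that differed. Sardh, sarcosine dehydrogenase, had at most 1 count in a library, while its antisense gene Sardhos had 0 in each ESC library and 24, 22 and 24 in neurons, at least 13-fold higher (edgeR adjusted p = 4.07e-12). Slc32a1, the vesicular GABA and glycine transporter, had 3, 1 and 0 counts in ESCs and 2, 1 and 5 in neurons. Its opposite-strand gene Gm14205 had 0, 0 and 1 counts, then 158, 81 and 106, a ratio of 580 with an interval of 103 to 23000 (edgeR adjusted p = 9.33e-20). Eng, opposite Fpgs, and Mitd1, opposite Lipt1, fell with log2 differences of −2.08 and −2.06. Fpgs, not tested, was also lower, with 24, 9 and 16 counts in ESCs and 0 in each neuron library. The gene 4930528J11Rik, opposite Ahcyl2, rose by a log2 difference of 1.05. Opposite Slc38a1, ENSMUSG00000120070.1 fell (log2 difference −0.94, but −0.21 and no longer passing with library totals) and ENSMUSG00000121185.1 did not pass (edgeR adjusted p = 0.0604). Gm15756, opposite Aldh1l1, passed at −0.35 (edgeR adjusted p = 0.0351) but was at 0.38 with library totals.

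**Figure D4:**
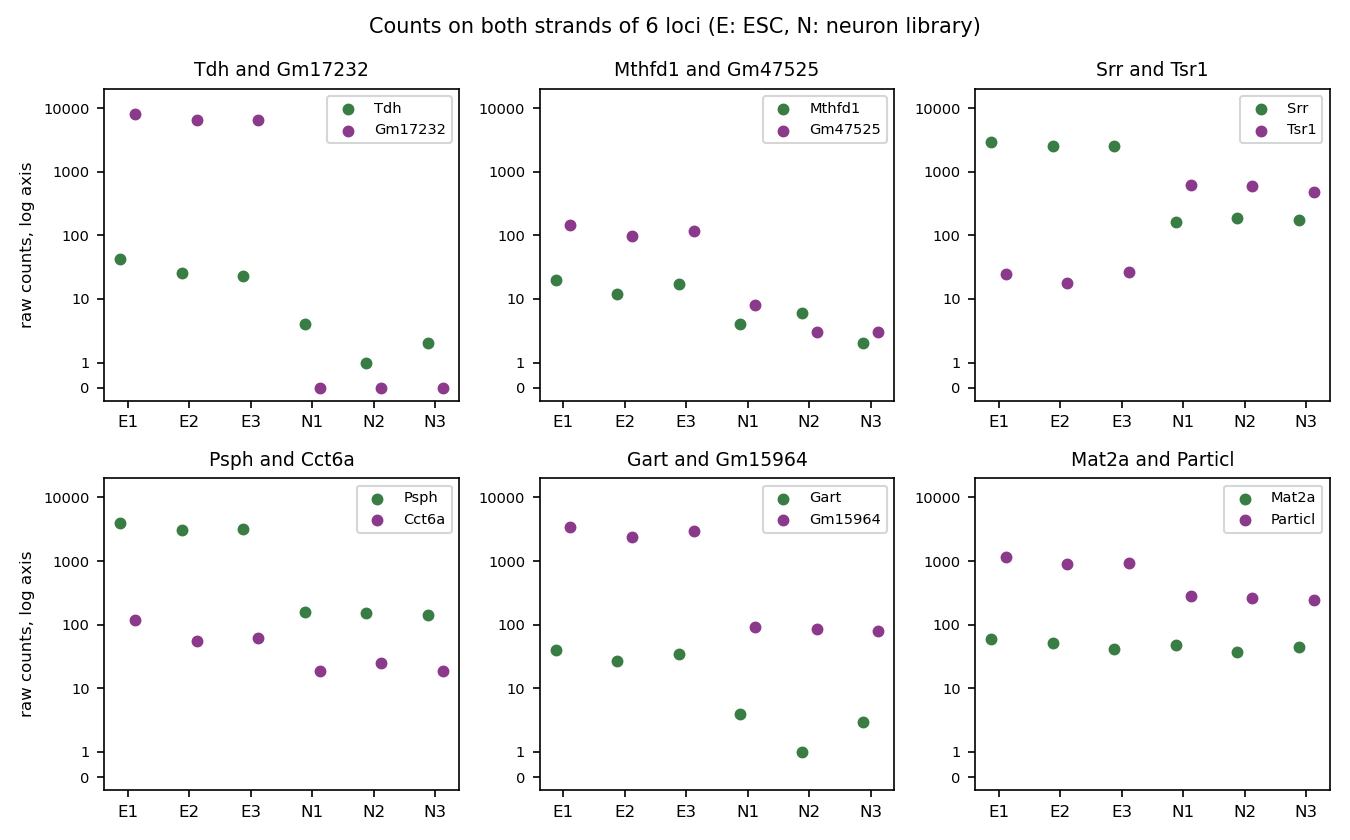
Raw counts on a log axis of both opposite-strand rows at 6 loci, with a point per library (E1 to E3 for ESC, N1 to N3 for neuron replicates 1 to 3). At Tdh, Mthfd1, Gart and Mat2a the antisense row holds most ESC counts. Psph holds more counts than Cct6a in every library, and at Srr and Tsr1 the larger row changes between the groups.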

How the data were processed

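The 6 libraries were grouped by their titles. The authors deposited raw counts per gene with the coordinates of each exon. STAR made the alignments, per the file headers, and the submitters' processing notes also name cutadapt, RSEM, GRCm39 and mm39. The counting tool, its strand setting and the versions are not given in the sources used here. Symbols came from GENCODE M21 by identifier (52029 genes), with 0 sample columns left unmapped.

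Members and gene lists were chosen with earlier results of these data known. Counts were filtered with filterByExpr (minimum count 10), TMM-scaled (factors 0.774 to 0.779 in ESCs, 1.28 to 1.30 in neurons) and fitted with edgeR's glmQLFit and glmQLFTest over all 6 libraries without covariates. P-values were adjusted by Benjamini-Hochberg over 7150 genes at 0.05. SE is the log2 difference divided by the square root of F. Ratios have exact 95% Poisson-based intervals and cover counting error only. Exons sharing at least 1 base on opposite strands were found with bedtools 2.31.1. Log2 CPM for distances used a prior count of 2.

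Named were the members and their partners, and, per list and per list's partners, up to 3 genes with the highest and 3 with the lowest log2 difference among those passing, the unpassed tested gene with the highest mean CPM, and the 3 genes nearest to Tdh and to Gm17232. Replicates were not copies (chi-square per degree of freedom 1.31 to 4.16). On simulated counts for 7150 genes with 200 changed 4-fold, the neuron against ESC test recovered 87%, and 5.95% of its calls were false. Those 200 genes were split between rises and falls, while 85.6% of tested genes passed in the data. The simulated rates therefore do not carry over to this contrast. Alternatives were other scaling, filters, DESeq2's Wald test, limma-voom, glmTreat against 2-fold, an overlap of 100 bases, a replicate block and leaving out each replicate. Software was edgeR 4.0.16, DESeq2 1.42.0 and limma 3.58.1 in R 4.3.3, and Python 3.11.15.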

Additional observations from a re-analysis of the deposited data

How the results depend on the processing

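With no filter on low counts, 11762 of 28820 genes passed (40.8%), and 39 list genes, because more genes were tested. Against a minimum 2-fold change (glmTreat, 67.4% of all genes past it), 11 opposite-strand partners passed. In the fit restricted to genes whose exons face no exon on the other strand, chosen after the data were seen, 1950 genes and 6 list genes passed, because fewer were tested. In that fit Amt reversed to −0.20. Other genes moved down in it as well, Slc46a1 from 2.09 to 1.34, Tars2 from 3.36 to 2.61 and Rrm2 from −2.77 to −3.50. With library totals, which gave 4050 genes higher and 2136 lower against 3358 and 2761 in the TMM fit, Aldh1l2 reversed to 0.076, Gm15756 to 0.38 and ENSMUSG00000121185.1 to 0.46. When a mean of 10 counts was required Gm15756 reversed to 0.015. Library totals raised the median of all tested genes by 0.73, and the cause of each reversal was not tested. Leaving out each replicate in turn, 5430 to 7353 genes, 16 to 28 list genes and 17 to 18 partners passed.

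With the replicate number as a block, 6088 genes, 21 list genes and 18 partners passed, and Aldh1l2 lost its call. Deviations from group means correlated at −0.022 to 0.019 between same-numbered libraries and −0.025 to 0.019 between others, so the numbers did not pair the libraries. DESeq2's Wald test gave 5774 genes, 19 list genes and 16 partners. Of the 45 named list genes, partners and nearest genes, 14 changed their side of the threshold in at least 1 alternative. Depth is a limit for the members: levels of Tdh, Gcat, Gcsh, Shmt2 and Mthfd2 under 3 counts in neuron libraries could not be resolved. The strand of counting, which is not stated, is another limit, for the members, the list genes and their partners. A row may hold reads of the gene opposite, and few counts in a row do not show that its gene was absent. The log2 difference was −2.91 for the Tdh row and −10.76 for the sum of the Tdh and Gm17232 rows. Gm17232 held 99.5% to 99.7% of the ESC counts of that sum, so −10.76 is mostly its difference and not that of Tdh.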
